A study of Homo sapiens with 18 samples.

Results

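NEAT1, MALAT1, GAS5, SNHG1, SNHG5, SNHG8, SNHG12, SNHG15 and ZFAS1 are long noncoding RNAs (lncRNAs) that are usually read at high levels in human cells. They were taken by name, 9 of the 58302 gene rows in the deposited table, and the name MALAT1 occurs on a second row that is a short segment inside the gene. The libraries came from TPC1, a papillary thyroid carcinoma cell line, and from D11, a single Dicer1 (+/-) clone that was made from TPC1 with CRISPR-Cas9 and keeps a wild-type allele. In each line, cells received no siRNA (NT), 5 nM of a control siRNA without a target (NC), or 5 nM of an siRNA against Dicer1 (siDicer), and RNA was collected on day 4. Each of the 6 groups had 3 libraries, and all cells were grown in the same medium. The comparisons asked how transcript levels respond when DICER1, the enzyme that cuts precursor miRNAs, is lost in part (D11) or further reduced by siRNA. The labels do not say whether replicates were separate cultures, and the study's methods say only in general that experiments were repeated independently, so p-values measure the spread between these libraries, which may be technical.

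NEAT1 is the RNA scaffold of paraspeckles, nuclear bodies that assemble on its long isoform, and MALAT1 is a nuclear RNA concentrated in nuclear speckles, where splicing factors are stored. The 3′ end of MALAT1 and of the long NEAT1 isoform is made by RNase P cleavage and protected by a triple helix in place of an ordinary poly-A tail. GAS5, ZFAS1 and the SNHG genes are snoRNA host genes: their introns carry small nucleolar RNAs, which guide the modification of ribosomal RNA, and the spliced exons that remain are poorly coding. Several of these spliced host RNAs begin with a terminal oligopyrimidine tract, as ribosomal protein mRNAs do, and are broken down by nonsense-mediated decay while they are being translated.

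Values are reads per gene scaled by the authors to 20 M reads per library and rounded up, here called normalised values. The depth recovered from the steps between values was 11.3 to 23.2 M reads, so that 3 reads were worth 2.58 to 5.32. DICER1 was 298.7 ± 83.5 (SD, n = 3) in TPC1 siDicer libraries, 15.9% of the 1875 ± 463 (SD, n = 6) of TPC1 controls, and in D11 it was 28.8% of control (limma, log2 difference -2.64, SE 0.21, adjusted p = 0.000337 in TPC1 and -1.77, SE 0.25, adjusted p = 0.000649 in D11). In NC it was 151% of NT in TPC1 and 160.0% in D11, without a call in either line. Groups follow the sample descriptions, which DICER1 follows too, whereas the titles of 12 of the 18 samples name another group. Of the markers of a thyroid follicular cell, PAX8 was read at 7361 to 14886, FOXE1 at 61 to 214 and TG at 32 to 124, while TSHR did not exceed 2 and NKX2-1 was at 0 in every library. Of the epithelial markers, KRT8 was read at 5715 to 13581, KRT18 at 2908 to 6564, KRT19 at 2 to 8, EPCAM at 0 to 6 and CDH1 at 0 to 8. KRT7 (150 to 455) was called higher in TPC1 siDicer (log2 difference 0.82, SE 0.20, adjusted p = 0.023). KRT18 went the other way in D11 siDicer, without a call (-0.39, SE 0.12, adjusted p = 0.030). Leukocyte and endothelial markers stayed at or below 24 in every library, and of 6 fibroblast markers only LUM, at 0 to 517, was called, again higher in TPC1 siDicer (1.86, SE 0.23, adjusted p = 0.00126). The part of these in the results was not tested.

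The word abundant held for 8 of the 9 lncRNAs. SNHG15 was read at 0 to 6 in all 18 libraries, at about the value of 3 reads, and was not tested in any comparison because it did not reach 10 in 3 libraries. The other 8 had medians between 428.5 (SNHG12) and 4785 (NEAT1). Levels can be compared between genes only per length. Divided by the summed exon length of each gene, GAS5 was highest, at 923 per kb over 18 libraries (719 to 1250). SNHG1 followed at 371 per kb (247 to 548), MALAT1 at 320 per kb (161 to 769) and NEAT1 at 269 per kb (183 to 600), and the ranges of these 3 overlapped. ZFAS1 at 206 per kb (168 to 275) and SNHG5 at 201 per kb (155 to 335) did not differ beyond their spread, nor did SNHG12 at 99.4 per kb (61.4 to 124) and SNHG8 at 98.0 per kb (76.1 to 165). The lengths add up all annotated exons, 3.98 kb for SNHG1 but 12.6 kb for SNHG5, so a gene with long rare isoforms is given too low a level per kb.

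NEAT1 spans chromosome 11 from 65422774 to 65445540 on the plus strand (GRCh38), and MALAT1 follows on the same strand from 65497640 to 65508073. In TPC1, NEAT1 was read at 4774, 13666 and 4564 in the NT libraries, at 4358, 6954 and 4785 in the NC libraries, and at 4305, 7059 and 4608 after siDicer. In D11, the NT libraries held 4158, 8216 and 5401, the NC libraries 4407, 10339 and 4784, and the siDicer libraries 4627, 7635 and 5433. The second library was the highest in all 6 groups, and the 3 conditions overlapped in both lines. MALAT1 was read in TPC1 at 2533, 8025 and 2152 in the NT libraries, at 2347, 4566 and 2431 in the NC libraries, and at 2340, 4517 and 2520 after siDicer. The D11 values were 1676, 5116 and 2282 in the NT libraries, 2039, 5499 and 2310 in the NC libraries, and 2193, 4924 and 2618 after siDicer. Again replicate 2 was the highest in 6 of 6 groups and the conditions overlapped.

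**Figure D1:**
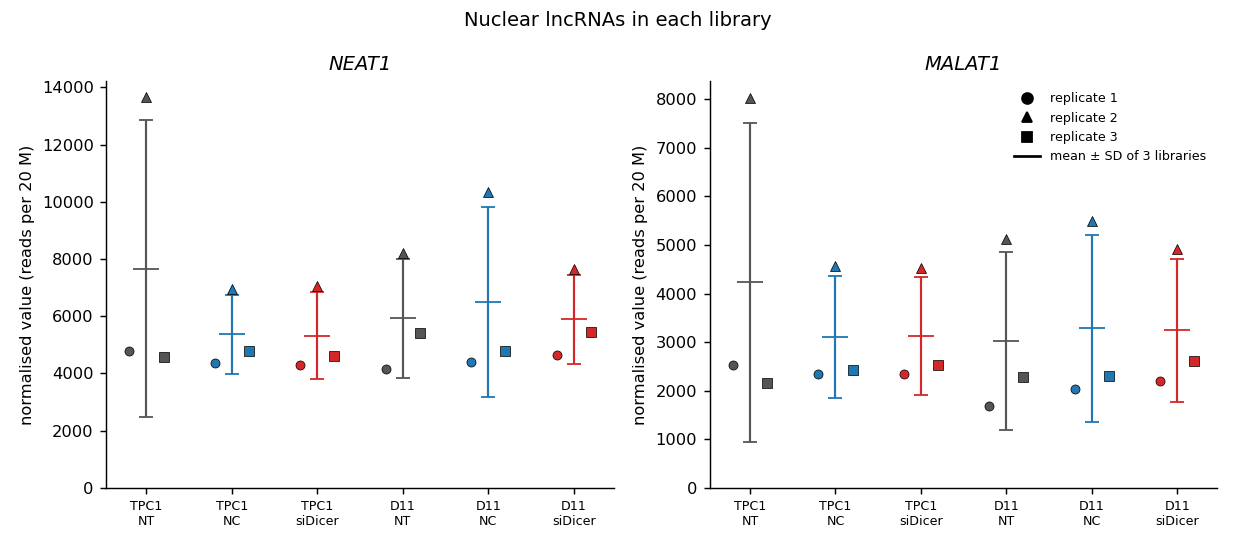
Normalised values (reads per 20 M, vertical axis from 0) of NEAT1 and MALAT1 in the 18 libraries, by group; symbols mark the replicate number, and bars give the mean ± SD of 3 libraries. The triangles of replicate 2 lie above the other libraries in all 6 groups, at 6954 to 13666 for NEAT1 against 4158 to 5433, and at 4517 to 8025 for MALAT1 against 1676 to 2618.

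The ratio of replicate 2 to the mean of the other libraries of its group was 1.52 to 2.93 for NEAT1 and 1.86 to 3.43 for MALAT1. Across the 19181 genes tested over all libraries, 4.95% had replicate 2 highest in all 6 groups, and NEAT1 and MALAT1 were 2 of the 8 lncRNAs tested, a pattern that was noticed after the values were seen. None of the 6 snoRNA host lncRNAs tested, none of the 8 other abundant lncRNAs tested and none of the 14 paraspeckle protein genes did so. It did hold for SRSF11 and U2AF1, 2 of the 14 nuclear speckle protein genes, for LTBP3, 1 of the 14 neighbouring genes tested, and for PAX8, 1 of the 3 thyroid markers tested, all named after their values were seen. The ratio of MALAT1 to NEAT1 values was 0.403 to 0.657 in all 18 libraries, while NEAT1 itself ranged from 4158 to 13666. That ratio was highest in replicate 2 in all 6 groups, for example at 0.623 against 0.403 and 0.423 in D11 NT. MALAT1 was thus raised more than NEAT1 in these libraries. The replicate 2 libraries held 11.6 to 17.2 M reads against 11.3 to 23.2 M in the others, and mitochondrial genes took 2.73% to 3.19% of their reads against 2.54% to 3.22%, highest in replicate 2 in 4 of 6 groups. The part of depth, RNA quality or culture in this was not tested.

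NEAT1 and MALAT1 gave no call in any comparison. A gene was called at a Benjamini-Hochberg adjusted p under 0.05 and a fold of at least 1.5 (limma on log2(value + 1)), which 7.38% of 18475 genes met in TPC1 siDicer against control and 12% of 18413 genes met in D11. These shares rest in part on single libraries. The genes that passed the adjusted p alone were 2552 in TPC1, but 512 without siDicer replicate 3, 564 without siDicer replicate 1 and 1692 without NT replicate 1, and in D11 4086, but 1874 without siDicer replicate 3 and 2427 without siDicer replicate 1. The NEAT1 difference was -0.19 (SE 0.33, adjusted p = 0.75) in TPC1, with a 95% interval from -0.91 to 0.53, and -0.02 (SE 0.27, adjusted p = 0.97) in D11. The MALAT1 difference was -0.11 (SE 0.39, adjusted p = 0.88) in TPC1 and 0.11 (SE 0.37, adjusted p = 0.86) in D11. With the replicate number as a block and all libraries kept, the same differences had an SE of 0.18 for NEAT1 and 0.16 for MALAT1 in TPC1, and of 0.10 and 0.095 in D11. With the replicate 2 libraries left out, an alternative chosen after the values were seen, the SE for NEAT1 was 0.07 in TPC1 and 0.14 in D11. The NEAT1 interval then ran from -0.21 to 0.11 in TPC1 and from -0.20 to 0.41 in D11, and that of MALAT1 from -0.15 to 0.23 in TPC1 and from -0.13 to 0.57 in D11. The bounds for NEAT1 and MALAT1 from these 6 libraries a line lay inside the fold of 1.5 in either direction. The libraries left out were the highest for both genes in every group, so these bounds cannot exclude a larger difference. In the fit without a block that kept all libraries, the intervals of both genes reached beyond that fold in each line. For MALAT1 they reached -0.98 in TPC1 and 0.91 in D11. The libraries were prepared from poly-A selected RNA, so RNA without a poly-A tail is measured only as far as it was carried over, and fewer cells that express a gene cannot be told apart from less RNA per cell.

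The 5′ ends of the snoRNA hosts are printed because many RNAs of this class begin with a pyrimidine tract. Windows of 60 bases around the RefSeq start (GRCh38.p14) show 30 bases before and 30 from the start, on the strand of the gene, with the run of C and T that begins at the start in capitals. The table of starts held 7 of the 9 lncRNAs, all but NEAT1 and SNHG15, and the GAS5 line shows the first 30 bases of its GENCODE release 44 canonical transcript, since the RefSeq start of GAS5 lies further upstream.
SNHG12, chr1:28581844-28581903, minus strand: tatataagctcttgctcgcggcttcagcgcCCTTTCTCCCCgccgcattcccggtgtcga
SNHG5, chr6:85678704-85678763, minus strand: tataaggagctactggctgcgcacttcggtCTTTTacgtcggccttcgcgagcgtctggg
ZFAS1, chr20:49278612-49278671, plus strand: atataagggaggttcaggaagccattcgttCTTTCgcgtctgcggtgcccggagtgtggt
SNHG1, chr11:62855856-62855915, minus strand: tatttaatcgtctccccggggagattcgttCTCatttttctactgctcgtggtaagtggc
SNHG8, chr4:118278732-118278791, plus strand: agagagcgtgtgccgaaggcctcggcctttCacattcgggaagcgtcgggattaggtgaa
GAS5, chr1:173867960-173867989, minus strand, transcript only: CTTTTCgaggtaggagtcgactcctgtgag
SNHG12, SNHG5 and ZFAS1 began with a C and at least 4 further pyrimidines at the RefSeq start, as 4.07% of the 35116 RefSeq promoters did, whereas GAS5 and MALAT1 did not. GAS5 did so at the GENCODE start only. SNHG1 had a run of 3 pyrimidines, broken by an A before a further stretch of T, and SNHG8 a run of 1. Annotated starts are not measured ones, and the libraries do not show which start was used.

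SNHG1 had the lowest level relative to control of the 8 lncRNAs tested, in both lines. The gene lies on chromosome 11 from 62851978 to 62855953 on the minus strand and hosts box C/D snoRNAs. In TPC1 it was read at 2067, 1074 and 1549 in the NT libraries, at 1685, 1360 and 1507 in the NC libraries, and at 1091, 1263 and 1007 after siDicer. Only NT replicate 2 came down among the siDicer libraries. D11 held 2177, 1836 and 1702 in the NT libraries, 1714, 1544 and 1454 in the NC libraries, and 1135, 1426 and 984 after siDicer. The 3 D11 siDicer libraries lay below all 6 D11 controls, and 25.1% of genes tested in D11 had siDicer and control libraries that did not overlap. SNHG1 stood at 72.7% of control in TPC1 (log2 difference -0.44, SE 0.17, adjusted p = 0.11) and at 68.0% in D11 (-0.56, SE 0.14, adjusted p = 0.013). The D11 difference passed the adjusted p, which 22.2% of genes did, but at 1.48-fold it stayed just under the fold minimum and was not called. Leaving out the replicate 2 libraries made it a call in both lines, at -0.69 (SE 0.13, adjusted p = 0.0053) in TPC1 and -0.72 (SE 0.16, adjusted p = 0.022) in D11, where 14.3% and 10.5% of genes were called. Without TPC1 NT replicate 2 alone the TPC1 difference was -0.54 (adjusted p = 0.019). The D11 adjusted p was 0.054 without siDicer replicate 1, 0.094 without siDicer replicate 3 and 0.058 against NC alone.

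**Figure D2:**
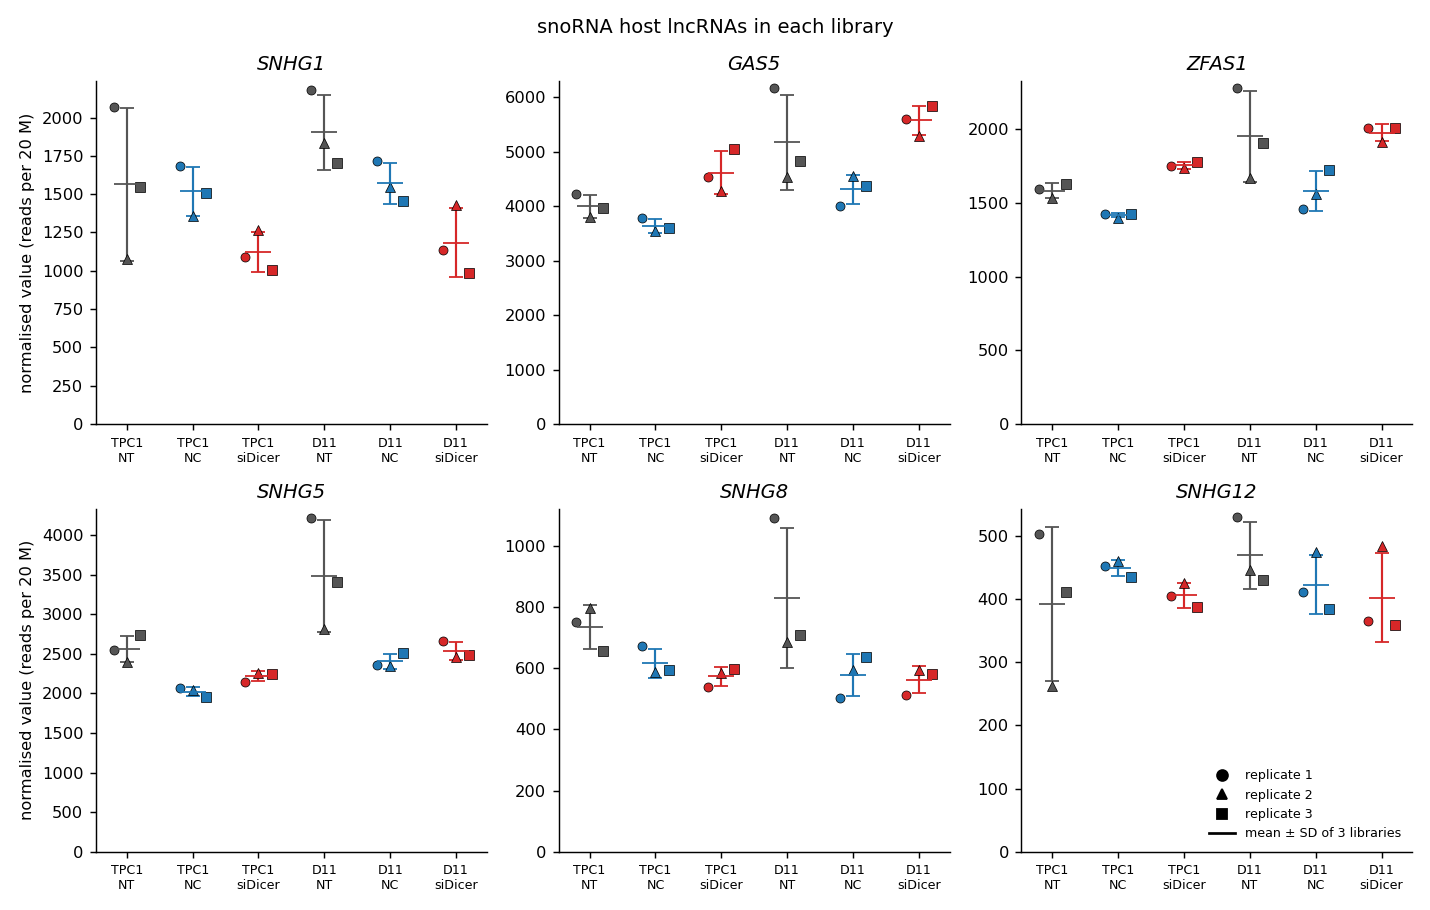
Normalised values (reads per 20 M, vertical axes from 0) of the 6 snoRNA host lncRNAs tested, by group; symbols mark the replicate number, and bars give the mean ± SD of 3 libraries. SNHG1 is lowest in the siDicer groups, at 1120 in TPC1 and 1182 in D11, GAS5 and ZFAS1 are above NC in siDicer, and SNHG5 is higher in NT than in NC in both lines.

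The profile of SNHG1 over the libraries was set against those of other genes. Among the other 12507 genes with a mean of at least 100, the 3 most like it were TYMS, the thymidylate synthase of DNA synthesis, RANBP1, a regulator of the Ran cycle, and SRSF1, a splicing factor (Pearson's r of log2 values 0.961, 0.958 and 0.957 over 18 libraries, Spearman's rho 0.971, 0.963 and 0.967). Within groups, after the 6 group means were removed, r was 0.922, 0.908 and 0.894. These 3 genes were named after the values were seen, and all points share their library and its scaling. The SNHG1 promoter, 250 bases before to 50 after the RefSeq start, is shown because it holds TTTCGCGC, a form of the E2F site found at many cell cycle genes, here in capitals.
SNHG1, chr11:62855836-62856135, minus strand: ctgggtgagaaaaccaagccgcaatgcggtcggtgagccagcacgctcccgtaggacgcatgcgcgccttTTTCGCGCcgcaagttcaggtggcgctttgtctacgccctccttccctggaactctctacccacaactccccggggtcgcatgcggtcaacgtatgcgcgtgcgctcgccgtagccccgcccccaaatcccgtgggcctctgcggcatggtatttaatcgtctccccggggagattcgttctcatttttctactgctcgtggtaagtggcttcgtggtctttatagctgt
These 8 letters were searched on both strands, a search chosen after the genes most like SNHG1 were seen, and occurred once, 180 bases before the start. They occur in 0.515% of the 35116 promoters and in 1 of the 7 lncRNAs with a promoter in the table. A match is a description and not a bound site.

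GAS5 and ZFAS1 were higher in siDicer than in the transfected control in both lines. GAS5, on chromosome 1 from 173858559 to 173868882 (minus strand), is named for its accumulation in growth-arrested cells. In TPC1 it was read at 4220, 3806 and 3966 in the NT libraries, at 3787, 3544 and 3595 in the NC libraries, and at 4531, 4271 and 5051 after siDicer. The siDicer libraries lay above all 6 controls, and 17.5% of genes tested in TPC1 had siDicer and control libraries that did not overlap. In D11 it was 6165, 4533 and 4822 in the NT libraries, 4008, 4545 and 4366 in the NC libraries, and 5598, 5297 and 5833 after siDicer. Here siDicer overlapped NT because NT replicate 1 was the highest library of all, and it lay above every NC library. GAS5 was 120.9% of control in TPC1 (log2 difference 0.27, SE 0.08, adjusted p = 0.0497, where 13.8% of genes passed) and 117.6% in D11 (0.25, SE 0.12, adjusted p = 0.15). The TPC1 p was lost without any 1 of 6 of the 9 libraries (adjusted p up to 0.25) and without a filter on low values (0.10), and the D11 difference without NT replicate 1 was 0.33 (adjusted p = 0.010).

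ZFAS1, on chromosome 20 from 49278178 to 49299600 (plus strand), starts beside the antisense gene ZNFX1 and hosts SNORD12 snoRNAs. In TPC1 it was read at 1594, 1531 and 1629 in the NT libraries, at 1423, 1400 and 1426 in the NC libraries, and at 1750, 1736 and 1781 after siDicer. These groups did not overlap at all in TPC1, with NC lowest and siDicer highest. The values in D11 were 2284, 1668 and 1906 in the NT libraries, 1458, 1564 and 1725 in the NC libraries, and 2008, 1911 and 2011 after siDicer, so that siDicer lay above NC but among NT. ZFAS1 was 117.0% of control in TPC1 (0.23, SE 0.08, adjusted p = 0.073) and 111.8% in D11 (0.18, SE 0.13, adjusted p = 0.35).

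Against NC alone, the control that had also received an siRNA, GAS5 differed by 0.34 (SE 0.08, adjusted p = 0.041) in TPC1 and 0.37 (SE 0.08, adjusted p = 0.015) in D11. ZFAS1 differed by 0.31 (SE 0.07, adjusted p = 0.032) and 0.32 (SE 0.09, adjusted p = 0.037). They were 2 of the 8 lncRNAs tested to pass the adjusted p, against 11.3% of genes in TPC1 and 17.7% in D11, and neither reached the fold of 1.5. Against NT alone neither passed. GAS5 differed by 0.21 (adjusted p = 0.22) in TPC1 and 0.12 (adjusted p = 0.51) in D11, and ZFAS1 by 0.15 (adjusted p = 0.31) and 0.03 (adjusted p = 0.88). With NT as the control 0 of the 8 lncRNAs passed in TPC1, against 7.55% of genes. In D11 SNHG1 (-0.70, SE 0.15, adjusted p = 0.0097) and SNHG5 (-0.44, SE 0.14, adjusted p = 0.046) passed, 2 of 8 against 26.2% of genes.

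**Figure D3:**
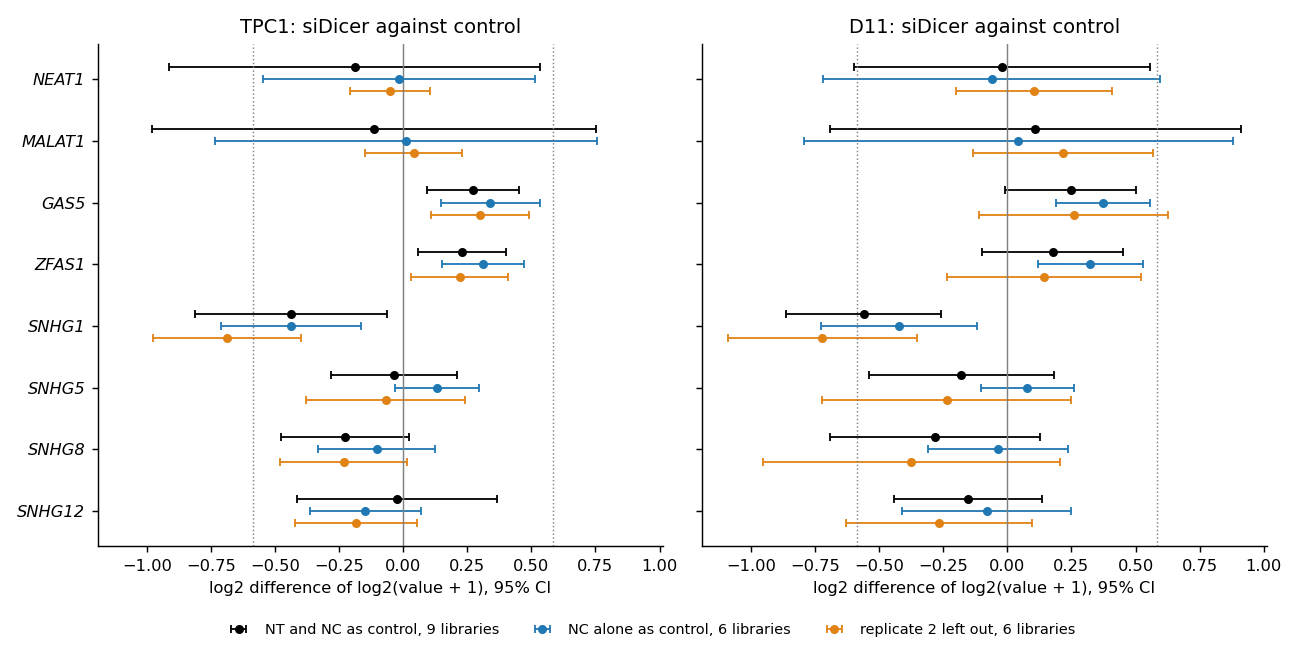
Log2 difference between siDicer and control (horizontal axis, points with 95% confidence intervals from limma) for the 8 lncRNAs tested, TPC1 left and D11 right, with NT and NC, NC alone, or all but the replicate 2 libraries; dotted lines mark a fold of 1.5. The black NEAT1 interval in TPC1 runs from -0.91 to 0.53 and narrows to -0.21 to 0.11 without replicate 2, and the SNHG1 point without replicate 2 lies at -0.69 in TPC1 and -0.72 in D11.

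SNHG5 and SNHG8 were lower in the transfected control than in non-transfected D11 cells, in every library and without a call. SNHG5, on chromosome 6 from 85650491 to 85678932 (minus strand), was read in TPC1 at 2547, 2396 and 2731 in the NT libraries, at 2066, 2047 and 1952 in the NC libraries, and at 2146, 2256 and 2245 after siDicer. In D11 it was 4218, 2812 and 3400 in the NT libraries, 2354, 2341 and 2513 in the NC libraries, and 2664, 2453 and 2489 after siDicer. Every NC library lay below every NT library in both lines, with siDicer close to NC. SNHG5 in NC was 79.0% of NT in TPC1 (log2 difference -0.34, SE 0.09, adjusted p = 0.22) and 69.1% in D11 (-0.51, SE 0.14, adjusted p = 0.18). With the replicate number as a block the TPC1 adjusted p was 0.042 and the D11 one 0.056. Without the replicate 2 libraries it was 0.030 in TPC1 and 0.11 in D11.

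SNHG8, on chromosome 4 from 118278703 to 118285316 (plus strand), was read in TPC1 at 750, 796 and 656 in the NT libraries, at 671, 586 and 592 in the NC libraries, and at 538, 585 and 596 after siDicer. The D11 values were 1091, 685 and 709 in the NT libraries, 503, 594 and 636 in the NC libraries, and 511, 595 and 579 after siDicer. NC lay below NT in D11 (-0.49, SE 0.19, adjusted p = 0.31) and overlapped it in TPC1 (-0.25, SE 0.12, adjusted p = 0.49). In NC against NT, 3 of the 8 lncRNAs tested did not overlap in TPC1 (GAS5, SNHG5 and ZFAS1, NC lower), where 16.5% of genes did not. The count in D11 was 2 of 8 (SNHG5 and SNHG8, NC lower), where 19.8% did not. None of the 8 was called, and calls were made for 0.111% of genes in TPC1 and 0.35% in D11. D11 NT replicate 1 was the highest of the 6 D11 controls for 6 of the 8 lncRNAs tested, all 6 snoRNA hosts among them, and for 25.9% of all genes tested. Without it SNHG5 in D11 differed between NC and NT by -0.36, and SNHG8 by -0.28, against -0.51 and -0.49 with it.

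Against NT and NC together, SNHG5 in siDicer was 96.8% of control in TPC1 (-0.04, SE 0.11, adjusted p = 0.86) and 86.2% in D11 (-0.18, SE 0.17, adjusted p = 0.47). SNHG8 was 84.9% in TPC1 (-0.23, SE 0.11, adjusted p = 0.20) and 79.9% in D11 (-0.28, SE 0.19, adjusted p = 0.31). Without D11 NT replicate 1 the D11 differences were -0.068 for SNHG5 and -0.15 for SNHG8. Against NC alone SNHG8 in D11 differed by -0.037 (adjusted p = 0.87), and against NT alone by -0.53 (adjusted p = 0.052). SNHG12, on chromosome 1 from 28578538 to 28583132 (minus strand), was read at 262 to 530 over all 18 libraries. It stood at 406.0 ± 19.5 (SD, n = 3) in TPC1 siDicer against 421.0 ± 83.5 (SD, n = 6) in control, and at 402.7 ± 70.5 against 446.3 ± 51.4 in D11. The groups overlapped in both lines (-0.02, SE 0.18, adjusted p = 0.94 in TPC1 and -0.15, SE 0.13, adjusted p = 0.44 in D11). SNHG15, on chromosome 7 from 44983019 to 44986961 (minus strand), was at 1 to 4 in TPC1 siDicer and 4 to 6 in D11 siDicer against 0 to 5 in controls, and no difference was detectable at this depth.

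D11 was set against TPC1 using their 12 control libraries, in a fit that also held a term for transfection. Because D11 is a single clone, the values below are differences between the lines. The part of the partial Dicer1 loss in them was not tested, and the p-values carry no replication of clones. None of the 8 lncRNAs was called, against 1.02% of 18814 genes. GAS5 differed by 0.30 (D11 minus TPC1, SE 0.08, adjusted p = 0.097), SNHG5 by 0.34 (SE 0.09, adjusted p = 0.10) and ZFAS1 by 0.22 (SE 0.08, adjusted p = 0.31). With the replicate block, which narrowed the spread, the adjusted p was 0.024 for GAS5, 0.020 for SNHG5 and 0.11 for ZFAS1. NEAT1 differed by -0.02 (SE 0.28) and MALAT1 by -0.19 (SE 0.36). DICER1 itself was lower in D11 controls by 0.68 on the log2 scale (log2 difference -0.68, SE 0.12, adjusted p = 0.0056). The line by siDicer interaction called 0.0% of 19181 genes with limma and had 133 genes at an unadjusted p under 0.05. Chance alone would put a larger share, about 0.05 of genes, under that p, so the fit was conservative and could miss differences. For the 8 lncRNAs the interaction was between -0.14 and 0.22, at an adjusted p of 0.9998 for each. For GAS5 it was -0.03, with a 95% interval from -0.33 to 0.28, and for SNHG1 -0.12, from -0.61 to 0.36.

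The snoRNA genes inside the hosts have rows of their own, and mature snoRNAs, which lack a poly-A tail, are poorly carried into such libraries. All 7 snoRNA rows in SNHG1 lie wholly within annotated exons of the host, taken over all its transcripts. They may therefore share its reads and are not an independent reading. These rows held 11 to 114 each. Their sum was 192.3 ± 33.0 (SD, n = 3) in TPC1 siDicer against 291.0 ± 83.2 in NT and 287.0 ± 39.2 in NC. In D11 it was 208.7 ± 60.5 in siDicer, 303.0 ± 57.3 in NT and 286.3 ± 30.7 in NC. The sum was 15.9% to 18.9% of the SNHG1 value in the 6 groups. In D11, 2 of these 7 were called lower, where 12% of all genes were called in either direction. They were SNORD26 (-0.85, SE 0.25, adjusted p = 0.028) and a SNORD22 row (-1.12, SE 0.31, adjusted p = 0.021). Over the 18 libraries these rows held only 15 to 47 and 14 to 77. In TPC1 none of the 7 passed the adjusted p, which 13.8% of all genes did. SNORA24 inside SNHG8 was called lower in D11 (-0.89, SE 0.26, adjusted p = 0.029), at 16.3 ± 4.0 in siDicer against 33.3 ± 10.2 in NT and 29.3 ± 6.7 in NC. SNORA24 too lies wholly within annotated exons of its host and may share the host's reads. None of the snoRNA rows tested in SNHG5, SNHG12 and ZFAS1 passed in either line, and SNORA9 in SNHG15 was at 0 in every library. The 2 overlapping rows of SNORA16A inside SNHG12 were identical in 15 of 18 libraries and differed by at most 2.

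Rows for short segments inside the lncRNAs cover a part of the same RNA. They may share its reads, so their correlation with the whole gene is not an independent reading. The 3 NEAT1 segments near its 5′ end, 105 to 159 bases long, ranged from 248 to 1653 and correlated with NEAT1 at r = 0.980 to 0.988 over 18 libraries. The 95-base MALAT1 segment ranged from 107 to 390 (r = 0.973 with the gene), and the row of 57 bases for mascRNA, the tRNA-like RNA cut from the MALAT1 3′ end, from 9 to 94. Inside ZFAS1, the conserved segments ZNFX1-AS1_2 and ZNFX1-AS1_3 held 56.7% to 62.2% and 43.3% to 52.7% of the ZFAS1 value. How reads shared by such rows were handled is not given in the sources used here. GAS5-AS1 lies inside GAS5 on the other strand and kept to 5.61% to 6.65% of GAS5, so it cannot be told apart from GAS5 reads without the strand setting.

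Likeness was measured on log2 values over the 18 libraries. Apart from the NEAT1 and MALAT1 segments, NEAT1 was most like MALAT1 (r = 0.965, rho 0.856) and then MAPK8IP3, a kinesin adaptor (r = 0.958, rho 0.893). Without the replicate 2 libraries these were 0.586 and 0.673 over 12 libraries. GAS5 was most like GAS5-AS1 (r = 0.963), ZFAS1 (r = 0.946, rho 0.926) and LRRC75A-AS1, another snoRNA host (r = 0.918, rho 0.872), and without replicate 2 the value for ZFAS1 was 0.959. SNHG1 and SNHG12 had r = 0.715, SNHG5 and ZFAS1 0.722, and GAS5 and SNHG1 -0.108. All these values are across libraries that share groups and scaling, and are given as descriptions.

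Of the 19 other noncoding snoRNA host genes tested, 2 were called higher and 5 lower in each line, against 7.38% of all genes called in TPC1 and 12% in D11. Their median log2 difference was -0.29 in TPC1 and -0.33 in D11, against -0.04 and -0.04 over all genes. Led by the adjusted p in D11, the list began with LINC02001 (also named SNHG30; -1.40, SE 0.29 in TPC1 and -1.50, SE 0.23, adjusted p = 0.00098 in D11), EPB41L4A-AS1 (0.69, SE 0.15 and 0.63, SE 0.11, adjusted p = 0.0021) and C6orf48, also named SNHG32 (0.66, SE 0.11 and 0.66, SE 0.13, adjusted p = 0.0032). The other genes called lower, named after their values were seen, were SNHG3, SNHG19 and SNHG10 in both lines, SNHG4 in TPC1 and SNHG11 in D11. LRRC75A-AS1, read at 5686 to 8523 and named because it resembled GAS5, differed by 0.24 (SE 0.07, adjusted p = 0.044) in TPC1 and 0.22 (SE 0.11, adjusted p = 0.19) in D11. Host genes thus lay on both sides of 0, with SNHG1 on the lower side in D11. In NC against NT, where no Dicer1 siRNA was given, the median of these 19 genes was also below 0. It was -0.13 in TPC1 and -0.28 in D11, with 15 and 17 of 19 below 0 and none called. The part of transfection in the siDicer medians, which rest on NT and NC together, was not tested.

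**Figure D4:**
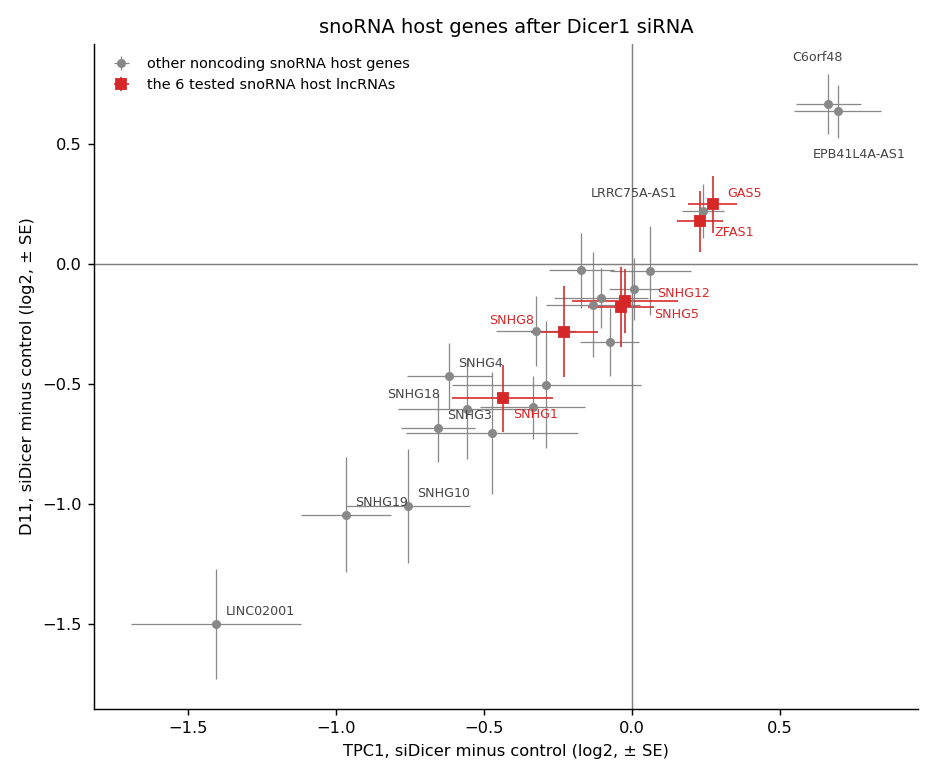
Log2 difference between siDicer and control in TPC1 (horizontal axis) and in D11 (vertical axis), each ± SE, for the 6 snoRNA host lncRNAs tested (red squares) and 19 other noncoding snoRNA host genes (grey points). LINC02001 lies lowest at -1.40 and -1.50, SNHG1 lies at -0.44 and -0.56, and EPB41L4A-AS1 lies at 0.69 and 0.63.

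Of 36 protein-coding genes that host snoRNAs, none was called in either line. The median was -0.10 in TPC1 and -0.11 in D11, with 33 of 36 below 0 in each. In NC against NT the median was -0.06 in TPC1 and -0.18 in D11, with 25 and 32 of 36 below 0. After siDicer, 4 of 36 were lower in D11 by adjusted p alone, where 22.2% of all genes passed in either direction. Among the 4 were CWF19L1 and TCP1, a chaperonin subunit (-0.36 and -0.37 in D11, SE 0.09 and 0.10). Of 19 snoRNP core and assembly protein genes, RUVBL2, an ATPase of snoRNP assembly, was called lower in both lines (-0.59, SE 0.09, adjusted p = 0.0037 in TPC1 and -0.84, SE 0.13, adjusted p = 0.00093 in D11), and PIH1D1 and FBL, the fibrillarin methyltransferase, stood at -0.56 (adjusted p = 0.030) and -0.47 (adjusted p = 0.033) in D11. The list's median was -0.17 in TPC1 and -0.24 in D11.

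Genes for proteins that share nuclear bodies with NEAT1 and MALAT1 gave no call either. Of 14 paraspeckle protein genes, 3 passed the adjusted p as lower in TPC1 and 6 in D11, where 13.8% and 22.2% of all genes passed in either direction. Among those in D11 were RBM14 (-0.58, SE 0.09, adjusted p = 0.0015) and HNRNPH3 (-0.42, SE 0.08, adjusted p = 0.0034), and in TPC1 these stood at -0.34 and -0.36, where RBM14 had an adjusted p of 0.25. Of 14 nuclear speckle protein genes, 4 passed as lower and 1 as higher in D11 and none in TPC1, beside the same shares of all genes. SON, a speckle scaffold, was at 0.46 (SE 0.12, adjusted p = 0.020) in D11, with SRSF1 at -0.28 (adjusted p = 0.027) and SRSF7 at -0.37 (adjusted p = 0.041). Of 17 nonsense-mediated decay factors, SMG6, the endonuclease of the pathway, stood at 0.36 (adjusted p = 0.032) and 0.35 (adjusted p = 0.027), and MAGOHB, an exon junction protein, at -0.49 (adjusted p = 0.038) in D11. The median of the decay list was -0.03 in TPC1 and -0.08 in D11.

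Of 8 other abundant lncRNAs tested, 1 was called in D11, where 12% of all genes were, and none in TPC1. KCNQ1OT1, the imprinted antisense RNA of the KCNQ1 locus, was called higher in D11 (1.40, SE 0.32, adjusted p = 0.0080) and stood at 1.00 (SE 0.32, adjusted p = 0.061) in TPC1. NORAD (0.26, adjusted p = 0.097) and TUG1 (0.18, adjusted p = 0.25) in D11 were not called. Of 14 neighbouring genes tested, 1 was called higher in TPC1 and 2 in D11, against 7.38% and 12% of all genes called in either direction. SLC3A2, which lies head to head with SNHG1, was higher in both lines (0.78, SE 0.23, adjusted p = 0.048 and 0.69, SE 0.16, adjusted p = 0.0098) where SNHG1 was at -0.44 and -0.56. ZNFX1, which overlaps the start of ZFAS1 on the other strand, stood at 0.58 (SE 0.19, adjusted p = 0.065) in TPC1 and was called higher in D11 (0.62, SE 0.14, adjusted p = 0.0066), and TBRG4 near SNHG15 was at -0.45 (adjusted p = 0.0046) in D11.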

How the data were processed

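RNA from 18 samples was sequenced as stranded poly-A libraries. Per the labels and the study's methods, alignment of the read pairs was to GRCh38 (STAR 2.5.3a), HTSeq 0.9.1 gave the reads of each gene in Ensembl release 90, and the authors scaled each library to 20 M aligned reads. The deposited values are therefore a normalised score and not counts: columns sum to 20010707 to 20018484, and the steps between values gave whole reads for at least 99.5% of values in 16 of 18 libraries, which the rounding up allows. The strand setting and the handling of shared reads are not given in the sources used here. The study's methods name a quasi-likelihood test for raw counts, which these are not, so limma 3.58.1 in R 4.3.3 (trend) was used on log2(value + 1), which understates folds of low genes, for genes of at least 10 in at least 3 libraries, with Benjamini-Hochberg adjustment over all genes of a comparison. Gene positions and exon lengths came from GENCODE release 44, matched by identifier. No replicates agreed within sampling noise (chi-square per gene 5.11 to 50.6 over 18 pairs).

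The lncRNAs, gene lists and tests were chosen with earlier results of these data known. Named genes were the lncRNAs, DICER1, the 3 genes most like NEAT1, MALAT1 and GAS5, and up to 3 genes of each list with the smallest adjusted p in D11; a few genes the rule named are not reported here. The fit was tested on simulated data. Samples with the same replicate number deviated together (r over 0.1) in 9 of 9 D11 pairs (0.106 to 0.473). In TPC1, 7 of 9 pairs did so (0.0861 to 0.509). With genes of a mean of at least 100 it was 8 of 9 in D11 and 9 of 9 in TPC1. In TPC1 the numbers did not meet the rule for pairing. The block was an alternative in both lines, so the main D11 fits leave out a pairing that the D11 libraries showed. Other alternatives were TMM and RLE scaling, filters, pseudocounts of 0.1 and 10, no fold minimum, groups from the titles, voom on recovered reads, NT or NC alone, all 18 libraries in one fit, and leaving out each library; leaving out the replicate 2 libraries was added after seeing the data. Intervals cover the spread between libraries only.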

Additional observations from a re-analysis of the deposited data

Results flagged for a closer look

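In the groups of 6 control libraries, a single library stood far from the other 5 in 2 of 18 cases looked at, where about 1 in 20 is flagged by chance. NEAT1 in TPC1 NT replicate 2 was read at 13666, with a gap to the next library of 0.72 of the whole range, above the critical ratio of 0.625, and the next libraries lay at 6954 and below. SNHG8 in D11 NT replicate 1 was read at 1091, with a gap of 0.65 of the range. Both libraries stood apart in other lncRNAs of the set as well: TPC1 NT replicate 2 had the highest MALAT1 of all libraries at 8025 and the lowest SNHG12 at 262, and D11 NT replicate 1 had the highest GAS5 at 6165 and the highest SNHG5 at 4218. No interaction of line and siDicer was called for any of the 8 lncRNAs tested, in a conservative fit that called 0.0% of 19181 genes.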

How the results depend on the processing

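Over 6 comparisons, 968 of 1056 alternative values of the 8 lncRNAs kept their direction and their side of the threshold for a call, 9 passed it and 79 changed sign, 45 of these when 1 library was left out. As none was called in the main fits, keeping that side meant staying uncalled. The adjusted p alone moved more. Titles aside, it was under 0.05 in 15 of 23 settings for GAS5 in TPC1 siDicer. For SNHG1 in D11 siDicer it was so in 20 of 23. No value that changed sign passed an adjusted p of 0.05, and the cause was not tested. The number of the 8 lncRNAs called was 0 in each comparison. It was 1 in TPC1 and 1 in D11 siDicer without a fold minimum (GAS5 and SNHG1), 1 in D11 against NT alone (SNHG1), 1 in each line without the replicate 2 libraries (SNHG1), and 0 to 1 in D11 when leaving out 1 library (SNHG1, called without NC replicate 2, NC replicate 3 or siDicer replicate 2). With groups from the titles it was 1 for NC against NT in D11 (MALAT1, 1.40). The titles name every replicate 1 library NT, every replicate 2 library NC and every replicate 3 library siDicer. That NC against NT comparison thus sets replicate 2 against replicate 1. The replicate block called 0 of 8 in all comparisons. With the block, calls over all genes for NC against NT were 300 higher and 265 lower against 6 and 14 without it in TPC1, 195 higher and 120 lower against 27 and 36 in D11, and 67 higher and 318 lower against 27 and 164 for D11 against TPC1 controls. Calls over all genes for TPC1 siDicer, 594 higher and 769 lower, were 159 and 287 without siDicer replicate 1, 168 and 259 without siDicer replicate 3, and 844 and 1250 without siDicer replicate 2. For D11 siDicer, 969 and 1243, they were 592 and 782 without siDicer replicate 3.

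Signs changed with TMM scaling for SNHG12 in TPC1 siDicer (0.0085) and NEAT1 in D11 siDicer (0.018). With RLE scaling they changed for SNHG5 (0.0016) and SNHG12 (0.014) in TPC1 and NEAT1 in D11 (0.018). NC alone gave MALAT1 0.011 and SNHG5 0.13 in TPC1 and SNHG5 0.077 in D11, and NT alone gave SNHG12 0.099 in TPC1 and NEAT1 0.019 in D11. Voom on recovered reads gave SNHG1 -0.0055 for NC against NT in TPC1. Without the replicate 2 libraries, siDicer gave MALAT1 0.040 in TPC1 and NEAT1 0.10 in D11. NC against NT gave MALAT1 0.033, SNHG1 -0.17 and SNHG12 -0.035 in TPC1 and NEAT1 -0.046 in D11, and D11 against TPC1 gave NEAT1 0.015 and SNHG12 -0.046.

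Groups from the titles follow the replicate number, so their NT, NC and siDicer contrasts are between replicates and not treatments. With groups from the titles, the changed values were SNHG5 0.033 and SNHG12 0.0047 for TPC1 siDicer, and MALAT1 -0.41, GAS5 -0.00024, SNHG5 0.014 and SNHG8 0.00091 for D11 siDicer. The same setting gave NEAT1 0.97, MALAT1 1.19, SNHG1 -0.35, SNHG8 0.0038 and SNHG12 -0.28 for NC against NT in TPC1, and SNHG12 0.12 for NC against NT in D11. It also gave SNHG8 -0.020 for D11 against TPC1 controls and SNHG8 0.078 and ZFAS1 0.030 for the interaction.

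Leaving out 1 library gave these lowest and highest values. For TPC1 siDicer they were NEAT1 -0.41 to 0.051, MALAT1 -0.41 to 0.15, SNHG5 -0.080 to 0.016 and SNHG12 -0.16 to 0.033. For D11 siDicer they were NEAT1 -0.22 to 0.14 and MALAT1 -0.24 to 0.35. For NC against NT in TPC1 they were NEAT1 -0.62 to 0.17, MALAT1 -0.60 to 0.34, SNHG1 -0.24 to 0.23 and SNHG12 -0.018 to 0.45. For NC against NT in D11 they were NEAT1 -0.31 to 0.34 and MALAT1 -0.31 to 0.60. For D11 against TPC1 controls they were NEAT1 -0.21 to 0.24, MALAT1 -0.41 to 0.090, SNHG8 -0.085 to 0.080 and SNHG12 -0.034 to 0.17. For the interaction they were NEAT1 -0.073 to 0.39, MALAT1 -0.12 to 0.52, GAS5 -0.080 to 0.053, SNHG8 -0.14 to 0.081, SNHG12 -0.27 to 0.00066 and ZFAS1 -0.10 to 0.025.

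The labels give no source for the replicates, titles and descriptions name different groups, and poly-A selection limits what is known of RNA without a tail. D11 is a single clone, so its comparison with TPC1 holds no replication of clones. Without the block, the spread of NEAT1 and MALAT1 left siDicer differences undetectable within the 95% intervals. SNHG15 lay at the depth limit of 3 reads (2.58 to 5.32).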
